A study of Homo sapiens with 2 samples.

Results

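The Wnt and beta-catenin pathway was examined in PLC-8024, a human hepatocellular carcinoma (HCC) cell line, through a list of 45 genes chosen by name. The list holds Wnt ligands, their receptors and antagonists, the beta-catenin destruction complex, the TCF/LEF transcription factors and feedback targets. All 45 symbols were found among the 58174 genes of the deposited tables, and 30 of them had at least 1 TPM, a transcript abundance corrected for gene length, in 1 library or both. A control library (PLC-8024-CTR) came from cells with a control vector, and a GDF1 library (PLC-8024-GDF1) from cells stably transduced with full-length GDF1, a secreted TGF-beta family ligand, by lentivirus and selected with puromycin. Both derive from the same line, labelled as liver, and were not stated to be clones. The comparison asks what differed in the transcriptome when GDF1 was overexpressed. Each condition was sequenced once, so differences are without a replicate check or p-value and describe these 2 libraries.

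In canonical Wnt signalling, a lipid-modified Wnt protein binds a Frizzled receptor together with LRP5 or LRP6. Dishevelled proteins then inactivate the destruction complex of AXIN1, APC, GSK3 and casein kinase 1, so that beta-catenin, the product of CTNNB1, is no longer degraded and joins TCF/LEF factors at target genes. Beta-catenin also links cadherins to the cytoskeleton. The pathway sets the zonation of enzymes across the liver lobule and is often activated in HCC.

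The log2 change is the log2 of TPM + 1 in the GDF1 library divided by TPM + 1 in the control library, and it understates the change of weakly expressed genes. A gene is said to have risen or fallen when this value passed 2-fold. GDF1 itself was listed at 2.10 and 4.64 TPM, and CERS1, annotated at the same locus on the same strand, at 13.3 and 9612 TPM. Over the 14929 genes that reached 1 TPM in a library, the median log2 change was -0.20, so most genes were somewhat lower in the GDF1 library. The level of a gene in a bulk library cannot tell fewer expressing cells from less RNA per cell. Of the 18 hepatocyte and HCC markers examined, all had at least 1 TPM. Their summed level was 15920 TPM in the control library and 11874 TPM in the GDF1 library, of which SERPINA1 gave 5308 and 2915 TPM. Of the 18, 10 fell over 2-fold, against 9.61% of all genes with at least 1 TPM, and 4 (FGA, TF, KRT8 and KRT18) were higher in the GDF1 library. The 5 cholangiocyte markers summed to 13.8 and 24.4 TPM, with KRT7 (log2 change 1.17) and KRT19 (1.13) rising and CFTR (-1.15) falling over 2-fold. The fibroblast markers summed to 3.80 and 2.61 TPM and the blood cell markers to 0.79 and 1.15 TPM, with DCN, COL1A2, PTPRC, MS4A1 and HBB at 0.0001 TPM, the value that stands in place of 0, in both libraries. The endothelial markers summed to 23.5 and 22.8 TPM, nearly all of it PECAM1, while VWF, KDR and TEK were at 0.0001 TPM.

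CTNNB1 and SP5 were the members that fell over 2-fold, and none rose over 2-fold. Thus 2 of 30 members passed 2-fold, against 14.4% of all 14929 genes in either direction (4.82% rose and 9.61% fell), so the share of members past 2-fold was not above that of all genes with a pseudocount of 1. With a pseudocount of 0.1, 7 of 30 members passed 2-fold, against 23.3% of all genes. With the plain TPM ratio 9 of 30 did, against 24.6%, so the comparison turned. The members leaned downwards: 24 of 30 were lower in the GDF1 library, against 63.3% of all genes. With rescaled TPM, 4 of these turned positive, and 3 did with the trend of all genes over GC content removed. Rescaling multiplied the GDF1 values by 1.15 so that the median ratio of genes with at least 5 TPM is 1. It also moved the median of all genes up to -0.025, and removing the GC trend moved that median to -0.0079. Thus 63.3% is not the share for either setting. As deposited, the median log2 change of the members was -0.38, which was 0.18 below that of all genes (a difference of -0.18). Of the 30 members, 20 lay below the median of all genes.

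Promoters were read from the RefSeq promoter table (GRCh38.p14, 250 bases before to 50 bases after each gene's start), which held 42 windows for 31 of the 45 members. They were searched on both strands for CTTTGAT and CTTTGAA, 2 forms of the core bound by TCF/LEF factors. Other forms, such as CTTTGTT, were not searched or marked, so the motif here means these 2 forms only. The motif was found in the windows of SP5 and DKK1, 2 of 42 (4.76%), against 6.86% of all 35116 promoters. Among genes with at least 1 TPM it was found in 1 of 28 member windows (3.57%), against 4.0% of all. SP5 held 3 matches, beginning at -148, -109 and -84 from the gene's start, a number reached by 9 of all 35116 windows (0.0256%). Because this cut-off is the count that SP5 itself holds, the share is not a test. CTNNB1 held none. The windows of the 2 members that fell and of DKK1 are printed with matches in capitals, because SP5 fell and carries the motif, CTNNB1 fell and does not, and DKK1 is the other match, 5′ to 3′ on the plus strand. They lie at chr2:170715087-170715386 (SP5), chr3:41199255-41199554 (CTNNB1) and chr10:52314031-52314330 (DKK1) of GRCh38.p14. TTCAAAG is CTTTGAA read on the other strand. A match describes the letters in this window and is not evidence of binding. AXIN2, FZD2, FZD3, FZD6, FZD7, LGR5, LRP6, NKD1, SFRP1, TBX3, WNT10B, WNT11, WNT7B and ZNRF3 had no window in the table.
SP5: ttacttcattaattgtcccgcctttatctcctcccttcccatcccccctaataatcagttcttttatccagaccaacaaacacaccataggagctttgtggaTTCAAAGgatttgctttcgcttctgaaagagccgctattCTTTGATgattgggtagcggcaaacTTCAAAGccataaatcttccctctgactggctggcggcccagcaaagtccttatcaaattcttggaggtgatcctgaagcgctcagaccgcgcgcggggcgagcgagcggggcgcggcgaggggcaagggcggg
CTNNB1: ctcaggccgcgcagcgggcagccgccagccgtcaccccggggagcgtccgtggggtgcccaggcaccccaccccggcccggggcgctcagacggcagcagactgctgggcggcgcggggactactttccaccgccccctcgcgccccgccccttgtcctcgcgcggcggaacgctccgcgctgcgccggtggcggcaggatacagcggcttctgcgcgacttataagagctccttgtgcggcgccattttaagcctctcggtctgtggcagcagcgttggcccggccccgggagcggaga
DKK1: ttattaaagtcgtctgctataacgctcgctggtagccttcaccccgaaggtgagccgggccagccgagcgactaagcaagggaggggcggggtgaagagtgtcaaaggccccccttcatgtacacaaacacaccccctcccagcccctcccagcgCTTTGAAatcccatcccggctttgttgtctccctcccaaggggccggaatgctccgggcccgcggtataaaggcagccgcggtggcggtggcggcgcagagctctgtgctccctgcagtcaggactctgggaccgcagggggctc

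CTNNB1 (ENSG00000168036, chromosome 3 of GRCh37 from 41236232 to 41301587, plus strand) had the largest log2 change among the 30 members. It had 47.7 TPM in the control library and 13.3 TPM in the GDF1 library, a log2 change of -1.77 and a level 3.58 times lower. In the control library it had more transcript than AXIN1 (a ratio of 1.51) and GSK3A (a ratio of 1.13), the scaffold and a kinase of the complex that degrades its product. In the GDF1 library the same ratios were 0.55 and 0.38. A log2 change as low or lower was found for 295 of the 14929 genes (1.98%). Because the log2 change of all genes varied with GC content, its GC content matters. At 43.5% it lay in the fifth of genes between 41.4% and 46.6%, whose median log2 change was -0.33 and of which 12% fell over 2-fold. With the GC trend removed the log2 change of CTNNB1 was -1.43. No gene with at least 1 TPM overlaps its exons on either strand.

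The transducers above beta-catenin stayed within 2-fold. DVL1, one of the Dishevelled proteins that carry the signal from the receptor, was the most abundant member in both libraries at 98.0 and 93.1 TPM. DVL3 was listed at 44.4 and 33.6 TPM and DVL2 at 22.5 and 20.7 TPM. DVL1 made up 59.4% of the summed DVL level in the control library and 63.2% in the GDF1 library. The 3 log2 changes were -0.07, -0.39 and -0.12 for DVL1, DVL3 and DVL2, and those of DVL1 and DVL2 turned positive with rescaled TPM, while all 3 stayed below 0 with the GC trend removed. CTNNB1 thus stood at 0.49 of the level of DVL1 in the control library and at 0.14 in the GDF1 library.

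**Figure D1:**
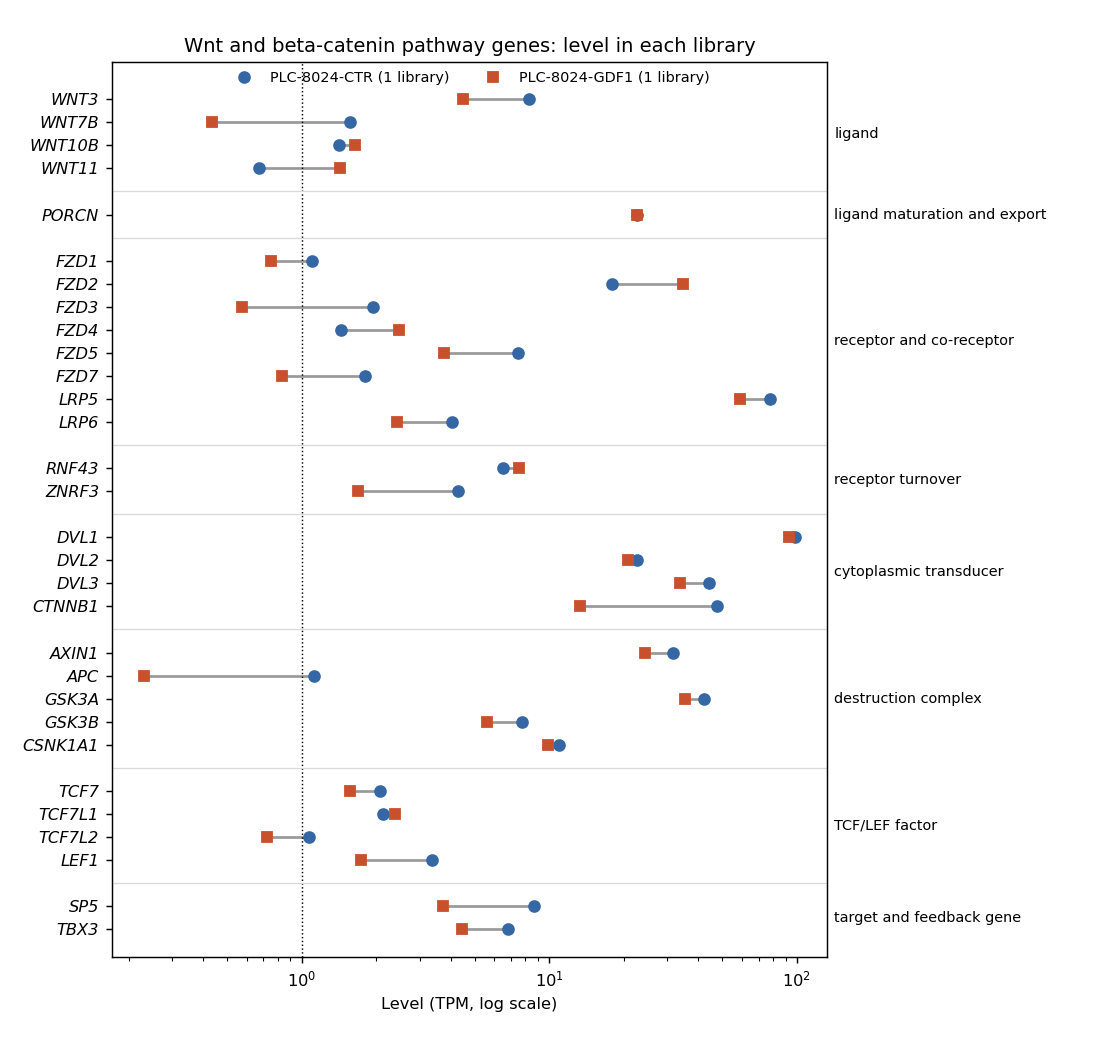
Level of the 30 pathway members with at least 1 TPM in either library, on a log axis in TPM, grouped by role; circles are the PLC-8024-CTR library, squares the PLC-8024-GDF1 library and the dotted line marks 1 TPM. CTNNB1 moves from 47.7 to 13.3 TPM while DVL1 (98.0 and 93.1 TPM) and PORCN (22.6 TPM in both) hardly move.

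The 5 destruction complex genes also stayed within 2-fold with a pseudocount of 1. The kinase gene GSK3A was listed at 42.1 and 35.2 TPM and its paralog GSK3B at 7.73 and 5.60 TPM, so GSK3A gave 84.5% and 86.3% of their summed level. AXIN1, the scaffold, was listed at 31.7 and 24.4 TPM, a log2 change of -0.36. CSNK1A1, the priming kinase of beta-catenin, was listed at 10.9 and 9.88 TPM. All 5 values were lower in the GDF1 library, but the log2 change of CSNK1A1 (-0.13) turned positive with rescaled TPM (0.058) and with the GC trend removed (0.27). CSNK1A1 shares 4194 exon bases on the same strand with AC021078.1, listed at 1.59 and 1.34 TPM, and reads could be assigned to either.

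APC, the tumour suppressor that scaffolds the complex, was listed at 1.12 TPM in the control library and 0.23 TPM in the GDF1 library. This is 4.84 times lower as a plain ratio, the largest among the 30 members, and a log2 change of -0.78. Its call therefore depends on the pseudocount. APC has a long transcript (10920 bases) of low GC content (40.5%), and with the GC trend removed its log2 change was -0.39.

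Of the 11 Wnt ligand genes, 4 reached 1 TPM. WNT3, a canonical ligand, was the most abundant, at 8.30 TPM in the control library and 4.49 TPM in the GDF1 library, a log2 change of -0.76. WNT7B was listed at 1.57 and 0.43 TPM, WNT10B at 1.41 and 1.64 TPM, and WNT11, known mainly for non-canonical signalling, at 0.67 and 1.42 TPM. WNT3 and WNT7B were lower and WNT10B and WNT11 higher in the GDF1 library, and none passed 2-fold with a pseudocount of 1. As plain ratios, WNT7B was 3.63 times lower and WNT11 2.11 times higher, while WNT3 and WNT10B stayed within 2-fold. The summed level of the 11 ligands was 13.5 TPM and 9.85 TPM, of which WNT3 gave 61.3% and 45.6% and WNT11 gave 4.98% and 14.5%. WNT2B, WNT4 and WNT5B ranged from 0.23 to 0.83 TPM, WNT3A and WNT6 were at or under 0.088 TPM, and WNT2 and WNT5A were listed at 0.0001 TPM in both libraries.

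The genes that prepare Wnt proteins for secretion differed widely in level. PORCN, the acyltransferase that lipid-modifies Wnt proteins, was listed at 22.6 TPM in both libraries (log2 change -0.0026). WLS, the carrier that takes them to the cell surface, was listed at 0.0001 and 0.021 TPM.

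The Frizzled receptors, which bind Wnt proteins, differed in make-up between the libraries. FZD2 (ENSG00000180340, chromosome 17 of GRCh37 from 42634852 to 42638630) was listed at 17.9 TPM in the control library and 34.7 TPM in the GDF1 library, a log2 change of 0.92 and the highest of the 30 members. It did not pass 2-fold with TPM as deposited, and did so with rescaled TPM (1.12) and, narrowly, with the GC trend removed (1.00). FZD4 was also higher, at 1.45 and 2.47 TPM, although 1399 of its exon bases lie opposite PRSS23, which was listed at 4.26 and 8.77 TPM. FZD5 was listed at 7.50 and 3.75 TPM, FZD3 at 1.94 and 0.58 TPM, FZD7 at 1.80 and 0.83 TPM and FZD1 at 1.10 and 0.75 TPM, each lower in the GDF1 library.

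FZD2 thus made up 56.2% of the summed level of FZD1 to FZD8 in the control library and 80.3% in the GDF1 library, while FZD5 made up 23.5% and 8.68%. These shares are taken within each library and do not depend on the scaling. The ratio of FZD2 to FZD5 was 2.39 and 9.25. The summed FZD level was 31.9 and 43.2 TPM. With FZD9 (4.77 and 5.96 TPM) and FZD10 (0.0001 TPM in both) counted as well, FZD2 made up 48.9% and 70.6%. FZD6 and FZD8 were at or under 0.12 TPM.

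**Figure D2:**
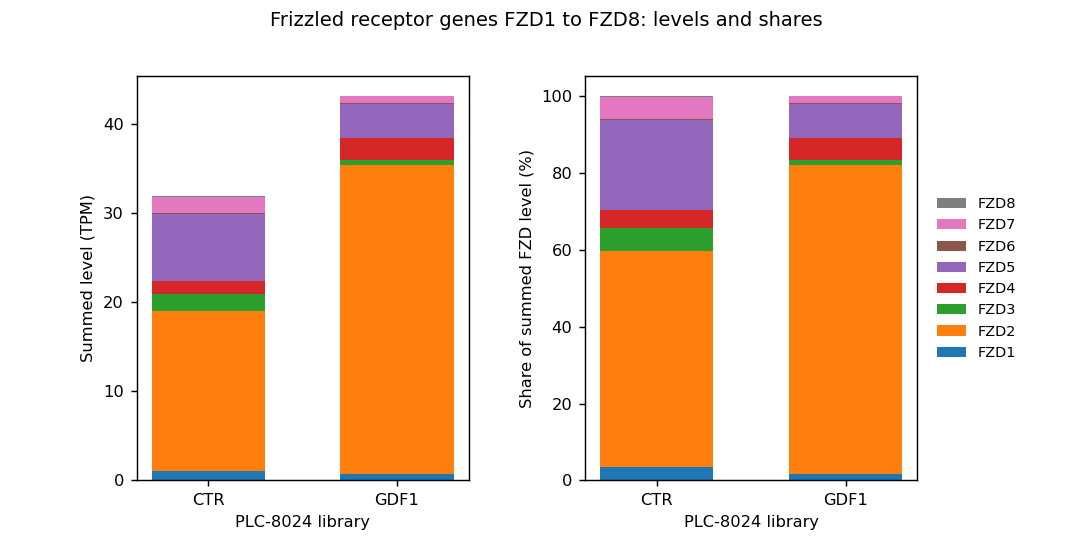
Summed level in TPM (left) and share of the summed level in percent (right) of the Frizzled receptor genes FZD1 to FZD8 in the PLC-8024-CTR and PLC-8024-GDF1 libraries, 1 bar per library. FZD2 grows from 56.2% to 80.3% of the sum and FZD5 shrinks from 23.5% to 8.68%.

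The co-receptor LRP5 was far more abundant than LRP6 in both libraries. LRP5 was listed at 78.1 and 59.1 TPM (log2 change -0.39) and LRP6 at 4.04 and 2.42 TPM (log2 change -0.56). Their ratio was 19.3 and 24.4, and LRP5 gave 95.1% and 96.1% of the sum. Of the secreted antagonists, DKK1, which binds LRP5 and LRP6, was listed at 0.40 and 0.39 TPM. SFRP1, which binds Wnt proteins, was listed at 0.0001 and 0.054 TPM.

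RNF43 and ZNRF3 are membrane ubiquitin ligases that remove Frizzled receptors from the surface, and both are targets of the pathway. ZNRF3 was listed at 4.28 TPM in the control library and 1.68 TPM in the GDF1 library, 2.54 times lower as a plain ratio and a log2 change of -0.98, just short of 2-fold. RNF43 was listed at 6.52 and 7.52 TPM, a log2 change of 0.18. The paralogs therefore lay on opposite sides of 0. LGR5, an R-spondin receptor that restrains these ligases and a stem cell marker, was listed at 0.38 and 0.51 TPM.

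The TCF/LEF factors, which bind DNA together with beta-catenin, were all of low abundance and none passed 2-fold. LEF1 was listed at 3.36 and 1.74 TPM (log2 change -0.67), TCF7 at 2.08 and 1.56 TPM and TCF7L2 at 1.07 and 0.73 TPM. TCF7 and TCF7L2 have 210 and 300 exon bases opposite SKP1 and AL158212.2. TCF7L1, known mostly as a repressor, was listed at 2.12 and 2.38 TPM. LEF1 was the most abundant of the 4 in the control library, with 38.9% of their sum, and TCF7L1 was the most abundant in the GDF1 library, with 37.1%. The sums were 8.63 and 6.41 TPM. The low value of TCF7L2 (log2 change -0.26) turned to 0.020 with the GC trend removed.

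SP5 (ENSG00000204335, chromosome 2 of GRCh37 from 171571847 to 171574588), a transcription factor gene known as a direct beta-catenin target, was listed at 8.69 TPM in the control library and 3.72 TPM in the GDF1 library. The log2 change was -1.04. It was -0.87 with rescaled TPM, which no longer passes 2-fold, and -1.26 with the GC trend removed, as its transcript has a high GC content (66.3%). TBX3, another target and a regulator of liver development, was listed at 6.79 and 4.43 TPM, a log2 change of -0.52. AXIN2, a feedback inhibitor widely used to read out the pathway, lay just outside the minimum of 1 TPM, at 0.99 and 0.28 TPM, a ratio of 3.48. NKD1, which inhibits Dishevelled, was listed at 0.15 and 0.097 TPM. All 4 members placed in the target and feedback role were lower in the GDF1 library, against 63.3% of all genes with at least 1 TPM. However, AXIN2 and NKD1 were under 1 TPM in both. The summed level of the 4 was 16.6 and 8.53 TPM. The ligase genes ZNRF3 (log2 change -0.98) and RNF43 (0.18), also targets, were placed in another role and lay on opposite sides of 0. The members nearest the minimum on its inner side were TCF7L2, with 1.07 TPM as its higher value, and FZD1, with 1.10 TPM.

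**Figure D3:**
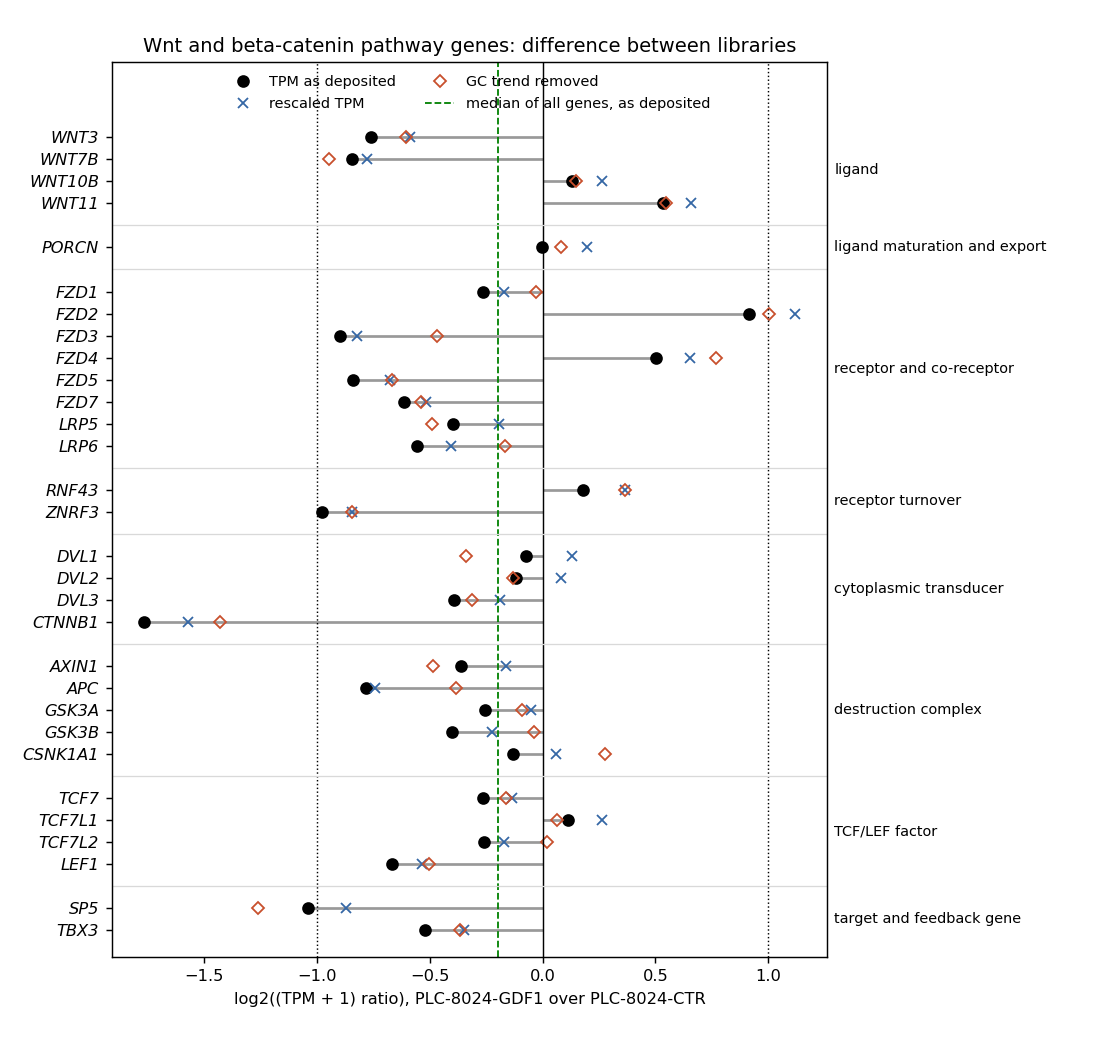
Log2((TPM + 1) ratio) between the GDF1 and control libraries, positive where GDF1 is higher, for the 30 members, with TPM as deposited (filled circles), rescaled TPM (crosses) and the GC trend removed (open diamonds); dotted lines mark 2-fold and the dashed line the median of all genes (-0.20). CTNNB1 lies beyond 2-fold under all 3 settings (-1.77, -1.57 and -1.43), SP5 under 2 of them, and FZD2 is the highest member under each.

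A further 133 genes of the pathway were examined in the same way, in 7 lists written with earlier results of these data known. At least 1 TPM was reached by 86 of them. Of these, 1 rose and 7 fell over 2-fold, again within the background of 14.4%, with a median log2 change of -0.34. The gene that rose was LGR4, an R-spondin receptor related to LGR5 that restrains ZNRF3 and RNF43, at 0.38 TPM in the control library and 4.23 TPM in the GDF1 library, a log2 change of 1.92. In the same list of 22 extracellular regulators, 7 of which had at least 1 TPM, GPC3 fell. This glypican, also counted among the hepatocyte and HCC markers, an oncofetal HCC antigen that binds Wnt proteins, was listed at 317.8 and 83.3 TPM, a log2 change of -1.92. KREMEN2, a receptor for DKK proteins, and NOTUM, a secreted enzyme that removes the lipid from Wnt proteins, were chosen after their values were seen. KREMEN2 was listed at 14.2 and 29.3 TPM (log2 change 0.9988, just under 2-fold) with 357 exon bases opposite PKMYT1, and NOTUM at 1.30 and 3.03 TPM (log2 change 0.81).

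Beta-catenin target genes outside the 45 members formed 2 lists. Both were written with earlier results of these data known, so their shares beside those of all genes are not a test. Of 24 general targets, 19 had at least 1 TPM, with a median log2 change of -0.51. Of the 19, 13 were lower, against 63.3% of all genes, and 3 fell over 2-fold, against 9.61%. VEGFA, the angiogenic growth factor, was listed at 54.5 and 9.02 TPM (log2 change -2.47). ETS2, a transcription factor, was listed at 28.9 and 10.3 TPM, and BIRC5, the apoptosis inhibitor survivin, at 16.5 and 7.39 TPM. BIRC5 (log2 change -1.06) stayed within 2-fold with rescaled TPM (-0.88) and with the GC trend removed (-0.90).

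Others of these targets were not lower. BAMBI, a pseudoreceptor of the TGF-beta family and the most abundant of the list in the GDF1 library, was listed at 85.8 and 104.9 TPM. MYC and CCND1, chosen after their values were seen, were listed at 3.76 and 3.94 TPM and at 60.3 and 69.7 TPM. The list of 16 liver targets was likewise written with earlier results of these data known. Of the 16, 8 had at least 1 TPM, with a median log2 change of -0.72, and 3 fell over 2-fold, against 9.61% of all genes. OAT, a mitochondrial aminotransferase of ornithine, was listed at 95.6 and 26.2 TPM (log2 change -1.83). HAL, the enzyme that begins histidine breakdown, was listed at 77.3 and 20.5 TPM, and SLC1A2, a glutamate transporter, at 6.19 and 1.68 TPM. The list gives no direction of regulation, and whether beta-catenin raises or lowers HAL was not tested. GLUL, glutamine synthetase and the classic liver target, was chosen after its values were seen and was listed at 29.0 and 21.2 TPM (log2 change -0.44). Of the 18 hepatocyte and HCC markers 10 fell over 2-fold, against 9.61% of all genes. The part of this in the lower level of the liver targets was not tested.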

How the data were processed

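Messenger RNA was isolated from 1 RNA sample of each condition and sequenced on an Illumina HiSeq instrument. Per the submitters' processing notes and the study's methods, reads were checked with FastQC 0.11.2, trimmed with Trimmomatic 0.36, aligned to hg19 with HISAT2 2.1.0 and quantified with StringTie 1.3.3b. The methods name a RefSeq annotation, whereas the rows carry Ensembl identifiers. The authors deposited 1 TPM value per gene and library for 58174 genes. TPM sums to nearly the same total in every library (999990 and 999995), so depth is unknown and no counting interval is given. Strand use in counting is not given in the sources used here.

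The log2 change used a pseudocount of 1 and genes that reached 1 TPM in at least 1 library. With no replicates, no test was made, and counts past 2-fold are set beside those of all genes. Positions, exon overlaps and GC content (longest transcript) came from GENCODE v44 on GRCh37, which is hg19, and were found for 55726 genes, and GC content for 14640 of those that reached 1 TPM. The trend of the log2 change over GC content was a lowess curve (span 0.3). Rescaled TPM multiplied PLC-8024-GDF1 by 1.15, which sets the median ratio of genes with at least 5 TPM to 1. Members were matched by symbol, and TLE5 by identifier. The members and lists were chosen with earlier results of these data known. The named genes were all members with at least 1 TPM and, of each other list, genes past 2-fold and the most abundant gene, and others are marked where they appear. Scripts ran in Python 3.11.15 with pandas 2.3.3, numpy 2.4.6, matplotlib 3.10.9 and statsmodels 0.14.6 and were tested on simulated data. The alternatives were other pseudocounts and TPM minimums, rescaled TPM, the GC trend removed and genes with same-strand overlaps left out.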

Additional observations from a re-analysis of the deposited data

How the results depend on the processing

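No paired analysis was possible because there is 1 library of each kind, and for the same reason none could be left out. CTNNB1 fell over 2-fold under each alternative tried for single genes, between -1.84 and -1.43. The count of members past 2-fold rested mainly on the pseudocount, since many members have low TPM. With a pseudocount of 0.1, 7 members fell (APC, CTNNB1, FZD3, FZD7, SP5, WNT7B and ZNRF3), against 15.5% of all genes. Of the 86 other pathway genes with at least 1 TPM, 3 rose, against 7.82% of all genes, and 11 fell. With the plain TPM ratio, 8 members fell, FZD5 being added, against 16.3% of all genes, and 1 rose (WNT11), against 8.23%, while 3 of the other pathway genes rose and 12 fell. With rescaled TPM 1 member rose (FZD2), against 6.97% of all genes, and 1 fell (CTNNB1), against 6.85%. Of the other pathway genes 2 rose and 6 fell. With the GC trend removed 1 member rose (FZD2), against 6.29% of all genes, and 2 fell (CTNNB1 and SP5), against 6.05%. Of the other pathway genes 1 rose and 6 fell. With at least 5 TPM, 0 of the 56 other genes rose, because LGR4 is left out, against 4.89% of all genes. The median log2 change of the members, -0.38, was -0.18 with rescaled TPM, -0.24 with the GC trend removed and -0.13 with no filter on low values, where genes near 0 TPM enter. The median of all genes moved as well. The members' median minus that of all genes was -0.18 as deposited, -0.15 with rescaled TPM, -0.23 with the GC trend removed and -0.13 with no filter. Rescaled to a median ratio of 1, all genes had a median of -0.025, and 1040 rose and 1022 fell, against 720 and 1434 as deposited. The GC trend removed gave 921 and 886. Small differences changed sign by the same shift. With rescaled TPM the log2 change was 0.20 for PORCN, 0.13 for DVL1, 0.082 for DVL2 and 0.058 for CSNK1A1. With the GC trend removed it was 0.080 for PORCN, 0.27 for CSNK1A1 and 0.020 for TCF7L2. Leaving out genes that overlap another on the same strand removed 1 member and 4 other pathway genes and changed none of the counts past 2-fold. Genes with overlaps on the opposite strand stayed in. Genes under about 1 TPM are the least certain, since TPM carries no depth.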

Other observations

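Among the lists not described above, the nuclear cofactors of beta-catenin and the planar polarity genes were expressed widely and held no gene past 2-fold with a pseudocount of 1. Of the 19 cofactors, 16 had at least 1 TPM, with a median log2 change of -0.22. TLE5, a short Groucho-related protein, was the most abundant, at 623.3 TPM in the control library and 842.5 TPM in the GDF1 library (log2 change 0.43). Of the 21 planar polarity and non-canonical genes, 15 had at least 1 TPM, with a median of -0.25, and RAC1, a small GTPase, was listed at 188.6 and 189.8 TPM. Of the 22 further genes of beta-catenin turnover, 20 had at least 1 TPM, with a median of -0.35. CSNK2B, the regulatory subunit of casein kinase 2, was the most abundant of them at 307.1 and 517.7 TPM. It shares 675 exon bases on the same strand with AL662899.3, which was listed at 105.0 and 5.18 TPM, and how reads were divided between the pair was not tested. Of the 10 other WNT and FZD genes, FZD9 was the 1 with at least 1 TPM.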
